A study of Mus musculus with 12 samples.

Results

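The genes described here are 9 mouse genes of the neurotrophin system and of activity-linked peptide secretion: the ligands Bdnf and Ntf3, the receptors Ntrk2, Ntrk3 and Sort1, the prohormone convertase Pcsk1, the granule proteins Vgf and Scg2, and the neuronal pentraxin Nptx2. They were taken by gene symbol from a table of RNA-seq read counts of mouse cortex with 25238 genes, and all 9 symbols are in it. Of the 9 genes, 8 passed the filter on low counts in each comparison and were tested, and Ntf3, with 1 to 12 reads in a library, was not.

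The study asked whether ISP (intracellular sigma peptide), which enters cells and binds the proteoglycan receptor PTPσ, changes recovery after stroke. Male C57BL/6J mice of 10 to 12 weeks had the middle cerebral artery occluded for 45 min (transient MCAo) and from day 1 on received ISP at 1 μg/g/day or vehicle (Veh, 5% DMSO in saline) until the brain was taken at day 14. Each library came from the peri-infarct cortex of 1 mouse, punched from frozen brain, with 4 mice for ISP (replicates 12, 14, 16 and 18), 4 for Veh (2, 6, 8 and 10) and 4 labelled control (19, 21, 36 and 38). For the mice labelled control, no surgery, treatment or day of their own is given in the sources used here, although the tissue is labelled peri-infarct cortex in all 12, and in places the study's text names scrambled peptide, not vehicle, as the treatment of the comparison stroke mice. Comparisons with control therefore hold for that label only.

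Neurotrophins are made as precursors, cleaved by convertases and packed into dense-core granules of neurons, and released in response to activity. Mature BDNF acts on TrkB, the product of Ntrk2, and neurotrophin-3 (Ntf3) acts mainly on TrkC, the product of Ntrk3, while sortilin (Sort1) binds proneurotrophins and sorts them within the cell. In cortex, Bdnf, Vgf, Scg2, Pcsk1 and Nptx2 are known as genes whose transcription rises with neuronal activity, and Ntrk2 is expressed in neurons as a full-length receptor and in astrocytes largely as a truncated one.

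Total counts were 21322702 to 29845629 in the control libraries, 17442711 to 24706638 in Veh and 19325979 to 28685864 in ISP. The tissue carried the markers of cortex, with Slc17a7, the vesicular glutamate transporter of cortical excitatory neurons, at 2034 to 2380 counts per 1000000 reads (CPM, normalized) in control, 2016 to 2681 in Veh and 1870 to 2302 in ISP. ISP 14 and ISP 18 stood apart from the other libraries in reactive astrocyte and microglia markers. The summed level of 10 reactive astrocyte markers, Gfap, Serpina3n and Vim the most abundant, was 83.7 to 92.9 CPM in control, 190.2 to 794.2 in Veh, with Veh 10 highest, and 378.8 to 2984 in ISP, with 1775 in ISP 14 and 2984 in ISP 18. Of that list, Lcn2 was at 0 in all 4 control libraries. The summed level of 10 microglia markers, none of them at 0, was 334.3 to 414 CPM in control, 436.5 to 759.4 in Veh and 508.7 to 1645 in ISP, and that of 12 neuron markers such as Snap25 and Syt1, none at 0, was 11870 to 12410, 10840 to 12030 and 9720 to 12020. The 10 oligodendrocyte markers summed to 3397 to 5119 CPM in control, 2912 to 7241 in Veh and 4877 to 11720 in ISP, where ISP 14 lay below ISP 12. Of these markers, 8 were called higher in ISP against control (median log2 fold change 0.84), as were 6.74% of all genes tested. In tissue of mixed cells, fewer cells of a type and less RNA per cell cannot be told apart.

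Activity acts on several of these genes through the cAMP response element (CRE), the binding site of CREB, with the palindromic letters TGACGTCA. In the RefSeq promoter windows of GRCm38.p6, which run from 250 bases before to 50 bases after each annotated start, 5 of the 9 genes had an entry, with 7 windows for Bdnf, 2 for Ntf3 and 1 each for Ntrk2, Pcsk1 and Scg2. The whole CRE was found in Pcsk1 and Scg2, and the short site TGACG, or its reverse complement CGTCA, without the whole CRE in 1 of the 7 Bdnf windows. The matches of the granule genes and of Bdnf are shown with 30 bases around them, with the motif in capitals.
Pcsk1, chr13:75089768-75089797, plus strand: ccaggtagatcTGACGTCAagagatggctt
Scg2, chr1:79440076-79440105, minus strand: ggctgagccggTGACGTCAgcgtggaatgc
Bdnf, chr2:109692389-109692418, plus strand: tatgacagctcaCGTCAaggcagcgtggag
The CRE begins 78 bases before the RefSeq start of Pcsk1, where a further short site begins 50 bases before it, and 68 bases before that of Scg2. The Bdnf short site begins 35 bases before the start of window 3 of its 7. In GENCODE M21 the Pcsk1 stretch lies outside every transcript, 29 bases before the first start, the Bdnf stretch lies in an intron of 5 of the 11 transcripts and 18 bases before the start of another, and the Scg2 stretch lies in the first exon, the 5′ UTR, of 1 of 2 transcripts and upstream of the other. Of all 27025 genes with a window, 2.03% held the whole CRE and 23.0% a short site of either kind, those within whole CREs included. These are matches of letters and not measured binding.

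Among the 9 genes, the level per kilobase of exon (CPM divided by the summed exon length) spanned a wide range in control. Vgf, the precursor of several secreted peptides, was highest at 245.2 ± 47.6 CPM per kb (SD, n = 4), followed by Sort1 at 82.2 ± 3.18 and Scg2 at 71.0 ± 4.27. Nptx2, with 30.6 ± 3.85, and Ntrk2, with 29.0 ± 1.75, overlapped between libraries. Pcsk1 was at 9.18 ± 1.15, Bdnf at 4.85 ± 0.876 and Ntrk3 at 1.96 ± 0.223, and Ntf3 was lowest at 0.184 ± 0.119. Apart from Nptx2 and Ntrk2, no neighbours in this order overlapped between the control libraries. Divided by the longest transcript in place of all exons, Ntrk2, whose exons add up to 19.3 kb over 10 transcripts, was at 63.9 and Bdnf at 7.06 CPM per kb.

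**Figure D1:**
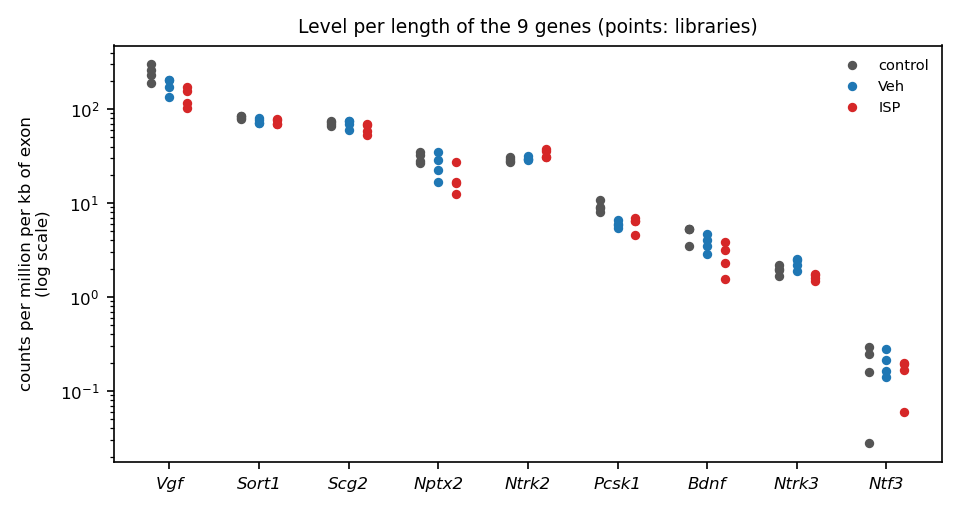
Level per length of the 9 genes, in CPM per kilobase of exon on a log axis, with 1 point per library and the groups control, Veh and ISP side by side. Vgf is highest and Ntf3 lowest in each group, and the lowest ISP point lies below all control points for every gene but Ntrk2 and Ntf3.

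Bdnf was the ligand with enough reads to test. Its gene is at chr2:109674700-109727007 on the plus strand (GRCm38). In control, Bdnf was at 32.9 CPM in replicate 19, 33.1 in 21, 22.0 in 36 and 32.6 in 38. In Veh it was at 25.3 in replicate 2, 17.7 in 6, 29.3 in 8 and 21.5 in 10, and in ISP at 19.5 in 12, 14.3 in 14, 24.0 in 16 and 9.63 in 18. The lowest values were those of ISP 18 and ISP 14, control and ISP overlapped through control 36 and ISP 16, and Veh overlapped both. The group means were 30.1 ± 5.45, 23.5 ± 4.97 and 16.9 ± 6.23 CPM (SD, n = 4 each). In the quasi-likelihood test of edgeR, Bdnf fell by 0.85 on the log2 scale in ISP against control (SE 0.235, Benjamini-Hochberg adjusted p = 0.0605, called under 0.1). The log2 fold change of Veh against control was -0.35 (SE 0.162, edgeR adjusted p = 0.298), and that of ISP against Veh -0.48 with a 95% interval from -1.03 to 0.07 (edgeR adjusted p = 0.374). Bdnf mRNA is made from several promoters, and these counts per gene do not tell them apart.

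Ntf3, the other ligand, had 8, 10, 12 and 1 reads in control 19, 21, 36 and 38. It had 8, 6, 8 and 6 reads in Veh 2, 6, 8 and 10, and 2, 8, 6 and 10 in ISP 12, 14, 16 and 18. At this depth the values of the 3 groups overlapped throughout, and a change in Ntf3 was not detectable. Without the filter, the log2 fold change of ISP against Veh was -0.33 with an SE of 0.708. The gene of neurotrophin-4, Ntf5, was at 0 to 0.425 CPM in control.

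The receptors varied less between replicates than Bdnf did. Ntrk2, at chr13:58806569-59133970 on the plus strand, was at 543, 603, 565 and 525 CPM in control 19, 21, 36 and 38. It was at 571, 564, 552 and 618 CPM in Veh 2, 6, 8 and 10, and at 595, 692, 605 and 735 in ISP 12, 14, 16 and 18. ISP 18 and ISP 14 were the highest of all 12 libraries, and Veh 10 was the highest of Veh. The log2 fold change of ISP against control was 0.23 (SE 0.0853, edgeR adjusted p = 0.136), the Wald test of DESeq2 gave an adjusted p of 0.0733, and edgeR without ISP 16 gave 0.0951. Against Veh it was 0.19 with an interval from 0.002 to 0.38 (edgeR adjusted p = 0.324), and for Veh against control it was 0.05 (edgeR adjusted p = 0.753).

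Ntrk3, the neurotrophin-3 receptor at chr7:78175959-78738012 on the minus strand, was the member with the smallest p-value between ISP and Veh. It was at 65.6, 56.5, 74.8 and 76.8 CPM in Veh 2, 6, 8 and 10, and at 52.3, 48.3, 53.0 and 44.2 in ISP 12, 14, 16 and 18. All 4 ISP libraries were below all 4 Veh libraries, and the control values of 66.8, 59.1, 50.4 and 59.9 (19, 21, 36 and 38) lay across both. The log2 fold change of ISP against Veh was -0.47 (SE 0.107, interval -0.70 to -0.23), with an unadjusted p of 0.00104 and an adjusted p of 0.261 over all genes in edgeR, so it was not called. DESeq2 gave an adjusted p of 0.0221 for the same libraries, and edgeR without Veh 6 gave 0.0718. Against control, Ntrk3 had a log2 fold change of 0.22 in Veh (edgeR adjusted p = 0.353) and of -0.26 in ISP (edgeR adjusted p = 0.156).

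Sort1, at chr3:108284082-108361511 on the plus strand, was at 597 to 648 CPM in control, 533 to 610.3 in Veh and 533 to 599.8 in ISP. Its coefficient of variation was the lowest of the 9 genes in control, at 3.87%. No comparison was called, with log2 fold changes of -0.12 in Veh against control, -0.15 in ISP against control and -0.02 in ISP against Veh (edgeR adjusted p = 0.413, 0.227 and 0.935). For ISP against Veh the 95% interval was -0.18 to 0.15.

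Pcsk1, which encodes prohormone convertase 1, was lower in Veh and in ISP than in control. Its gene is at chr13:75089826-75134861 on the plus strand. It was at 60.1, 51.5, 49.4 and 44.8 CPM in control 19, 21, 36 and 38. In Veh 2, 6, 8 and 10 it was at 36.7, 33.0, 33.5 and 30.6 CPM, and in ISP 12, 14, 16 and 18 at 36.5, 36.4, 38.5 and 25.7. Every library of Veh and of ISP was below every control library. Pcsk1 fell by 0.61 on the log2 scale in Veh against control (SE 0.0999, edgeR adjusted p = 0.0395), 34.7% lower, and by 0.59 in ISP against control (SE 0.132, edgeR adjusted p = 0.0333). Between ISP and Veh the log2 fold change was 0.03 with an interval from -0.24 to 0.31, and the 4 ISP values overlapped those of Veh.

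Vgf, at chr5:137026392-137033351 on the plus strand, was at 890.4, 559, 683 and 784 CPM in control 19, 21, 36 and 38. In Veh 2, 6, 8 and 10 it was at 606, 515, 615 and 397 CPM, and in ISP 12, 14, 16 and 18 at 460.4, 348, 518 and 307. All 4 ISP libraries were below all 4 control libraries, ISP 18 and ISP 14 were the lowest, and Veh overlapped both. The means were 729 ± 141 in control, 533 ± 101 in Veh and 408 ± 97.9 in ISP (SD, n = 4 each). Vgf fell by 0.84 on the log2 scale in ISP against control (SE 0.172, edgeR adjusted p = 0.0275), 44.2% lower. In Veh against control its log2 fold change was -0.44 (SE 0.15, edgeR adjusted p = 0.167), and DESeq2 gave an adjusted p of 0.0588. Between ISP and Veh it was -0.39 with an interval from -0.77 to -0.001 (edgeR adjusted p = 0.325).

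Scg2, the secretogranin II gene at chr1:79434669-79440120 on the minus strand, had smaller fold changes against control than Pcsk1 and Vgf. It was at 165 to 189 CPM in control, 151 to 189 in Veh and 133 to 174 in ISP. ISP 18, at 133, and ISP 14, at 148, were the lowest libraries, and the groups overlapped. The log2 fold changes were -0.02 in Veh against control, -0.19 in ISP against control and -0.15 in ISP against Veh (edgeR adjusted p = 0.921, 0.259 and 0.493).

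Nptx2, at chr5:144545902-144557478 on the plus strand, encodes a secreted pentraxin that gathers AMPA receptors at excitatory synapses on interneurons. It was at 89.4, 71.5, 68.0 and 81.8 CPM in control 19, 21, 36 and 38. It was at 72.9, 57.4, 88.6 and 42.9 CPM in Veh 2, 6, 8 and 10, and at 68.9, 31.9, 42.9 and 41.2 in ISP 12, 14, 16 and 18. ISP 12 lay within the control range and the other ISP libraries below it, while Veh spread over both. Nptx2 fell by 0.76 on the log2 scale in ISP against control (SE 0.192, edgeR adjusted p = 0.0472). The log2 fold change was -0.24 in Veh against control (edgeR adjusted p = 0.543) and -0.50 in ISP against Veh, with an interval from -1.05 to 0.04 (edgeR adjusted p = 0.353).

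**Figure D2:**
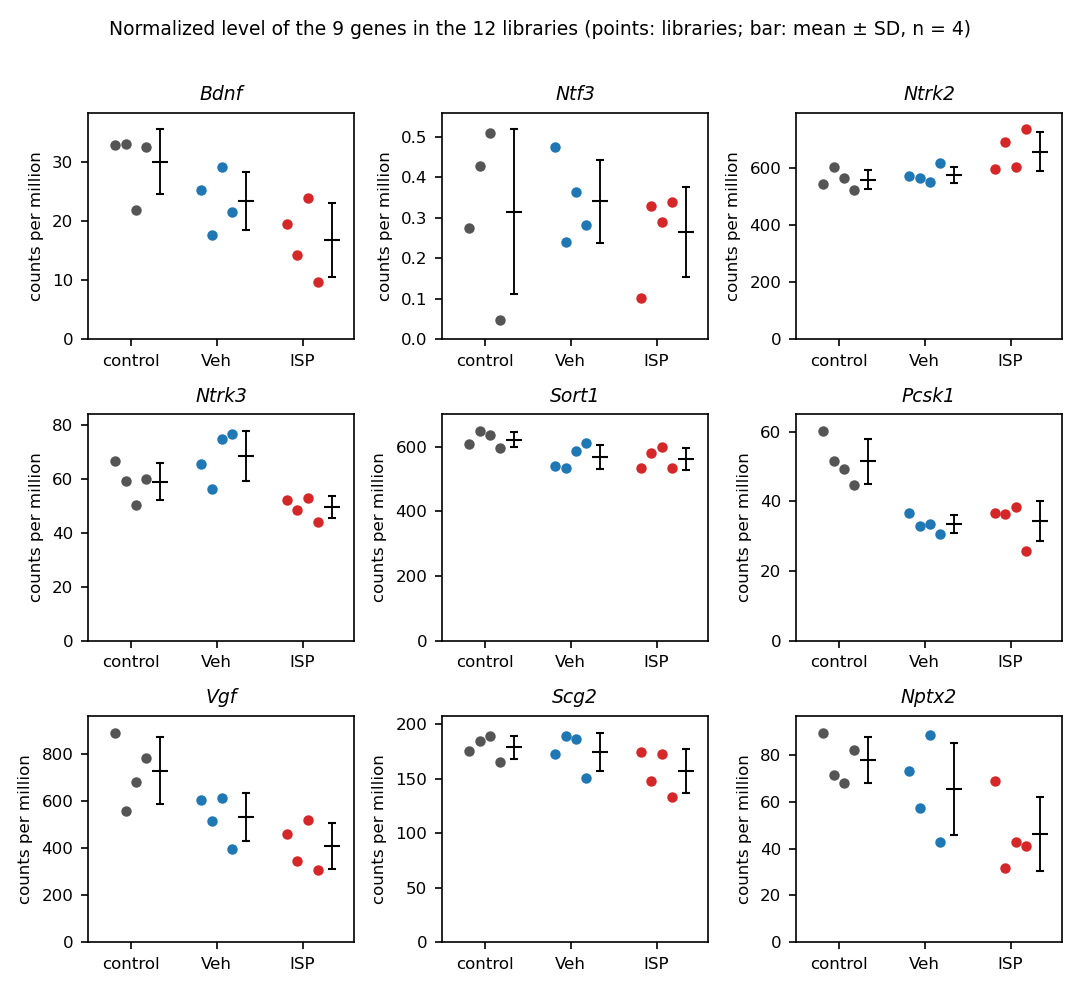
CPM of each of the 9 genes (y axes start at 0) in the 4 libraries of control, Veh and ISP, with the group mean ± SD (n = 4) beside the points. All Pcsk1 points of Veh and ISP lie below control, the ISP points of Vgf lie below control, and the ISP points of Ntrk3 lie below Veh.

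In Veh against control, 1 of the 8 tested members, Pcsk1, was lower and none was higher. Of all 15126 genes tested, 1.2% were called lower and 1.03% higher, and in 5.39% every Veh library was below every control library, as for Pcsk1. The median log2 fold change of the members was -0.18, that of all genes 0.02. The call of Pcsk1 was lost without Veh 2 (edgeR adjusted p = 0.108), without control 21 (0.11) and without control 36 (0.106), at log2 fold changes of -0.67, -0.62 and -0.63. In these fits edgeR called few or no genes at all, as given in the closing section on processing. With DESeq2, 2 members, Pcsk1 and Vgf, were called lower, against 3.64% of all genes.

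In ISP against control, 4 of the 8 members were lower (Vgf, Pcsk1, Nptx2 and Bdnf) and none was higher, where 3.42% of 15232 genes were called lower and 6.74% higher. Vgf and Pcsk1 were below control in every library, as were 4.75% of all genes. The median log2 fold change was -0.43 for the members and -0.01 for all genes. With DESeq2 Ntrk2 was called higher, as were 8.63% of genes. Vgf and Pcsk1 were called with each single library left out. Bdnf and Nptx2 were not called without ISP 14 (edgeR adjusted p = 0.165 and 0.122), ISP 18 (0.111 and 0.121), control 19 (0.13 and 0.108) or control 38 (0.152 and 0.121), nor Bdnf without control 21 (0.108). Without ISP 14 and ISP 18 together none of the 4 was called, with log2 fold changes of -0.57 for Vgf, -0.45 for Pcsk1, -0.47 for Nptx2 and -0.47 for Bdnf and adjusted p-values of 0.198, 0.229, 0.374 and 0.386 in edgeR. Both comparisons with control share the 4 control libraries.

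In ISP against Veh, edgeR called no gene of 15214. At an unadjusted edgeR p under 0.05, Ntrk3 and Vgf lay lower and Ntrk2 higher among the members, as did 7.47% (lower) and 7.87% (higher) of all genes. Ntrk3 was the only member with every ISP library below every Veh library, as were 4.01% of genes, and the only one called by DESeq2, which called 1.33% of genes lower. With ISP 14 and ISP 18 left out, the log2 fold change was -0.11 for Bdnf, -0.12 for Vgf, -0.23 for Nptx2 and 0.06 for Ntrk2, and -0.38 for Ntrk3 (edgeR adjusted p = 0.623). In counts simulated from these 8 libraries, 34.4% of the genes given a log2 fold change of 0.5 were called by edgeR. The simulated set also held larger changes and no variation shared between genes, so this share does not carry over to the members.

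**Figure D3:**
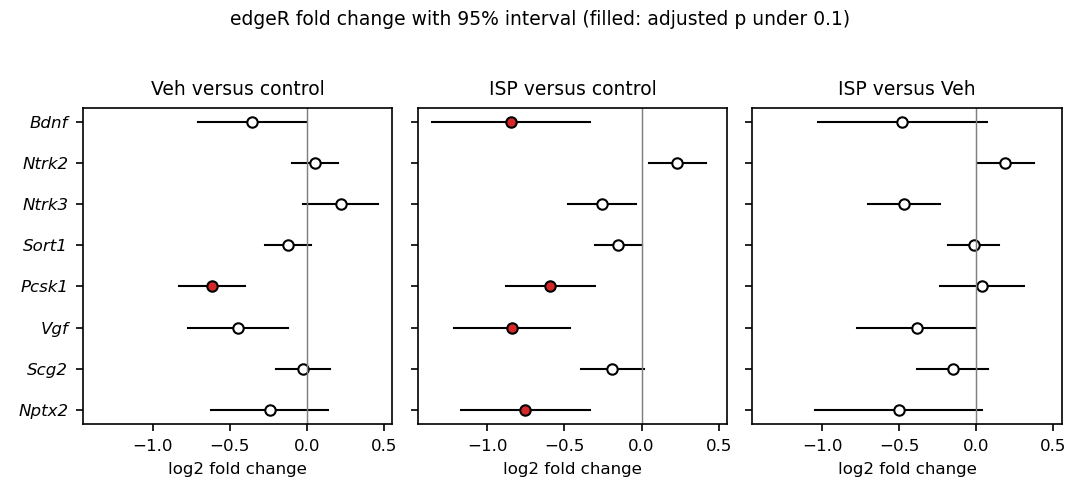
Log2 fold change (x axis) of the 8 tested genes with its 95% interval from edgeR in Veh versus control, ISP versus control and ISP versus Veh. Filled circles passed an adjusted p of 0.1: Pcsk1 in the first panel, Bdnf, Pcsk1, Vgf and Nptx2 in the second, and none in the third.

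Some of the members varied together across libraries, and others did not. Over the 12 libraries of the 3 groups, Pearson's r of log2 CPM was 0.85 between Bdnf and Vgf, 0.85 between Vgf and Nptx2, and -0.92 between Vgf and Ntrk2. With the group means removed, these were 0.68, 0.70 and -0.91. It was 0.14 between Ntrk3 and Pcsk1, 0.17 between Sort1 and Nptx2 (-0.45 within groups) and 0.32 between Ntrk3 and Scg2 (-0.06 within groups). All libraries share the same scaling, and these values describe 12 points from 3 groups, with ISP 14 and ISP 18 at one end.

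Vgf followed the mean level of the 12 neuron markers with r = 0.89 and Bdnf with 0.86 (0.82 and 0.78 within groups). Pcsk1 (0.81) and Scg2 (0.84) were close to this, Nptx2 (0.74) and Sort1 (0.54) were lower, Ntrk3 (0.36) was lower still, and Ntrk2 was at -0.84. The neuron list was not the only one with values of this size. Against the reactive astrocyte markers, Bdnf was at -0.87, Nptx2 at -0.84 and Pcsk1 at -0.73. Against the activated microglia and macrophage markers, Scg2 was at -0.89. Of the 12 neuron markers, edgeR called 1 (Slc12a5) lower in ISP against control, as it did 3.42% of all genes. The median log2 fold change of the list was -0.12 there. In Veh against control edgeR called none of the 12, and in ISP against Veh no gene at all. DESeq2 called 2 of the 12 lower in each comparison with control. Scaling the libraries to the neuron markers was a setting chosen after the values were seen. In it, Vgf, Pcsk1, Nptx2 and Bdnf were called lower in ISP against control, with log2 fold changes of -0.70, -0.44, -0.61 and -0.72 (edgeR adjusted p = 0.0327, 0.0457, 0.0664 and 0.0641). Ntrk2 was called higher, at 0.40 (0.0669). Of all 15232 genes, 1843 were then called higher and 130 lower, and the median log2 fold change was 0.15. Pcsk1 was called lower in Veh against control too, at -0.52 (0.0571), where 350 of 15126 genes were higher and 33 lower. The part of neuron content in the values of these genes was not tested.

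Ntrk2 followed the 10 reactive astrocyte markers with r = 0.92 (0.89 within groups), against which Vgf was at -0.91. It followed the microglia markers with 0.90, the activated microglia and macrophage markers with 0.89 and the astrocyte markers with 0.82. Of the reactive astrocyte list, 6 of the 7 tested genes were called higher in ISP against control and 3 of 8 in Veh against control. Among all genes tested, 6.74% and 1.03% were called higher there. The part of these lists in the values of Ntrk2 was not tested, and the counts per gene do not separate its full-length and truncated transcripts.

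Ntrk3 followed the 10 interneuron markers with r = 0.89 (0.70 within groups), the 10 oligodendrocyte markers with -0.82 (-0.77), the 11 upper-layer markers with 0.81 (0.74) and the 13 deep-layer markers with -0.79 (-0.81). The interneuron list, in which no marker was at 0, summed to 1347 to 1419 CPM in control, 1266 to 1434 in Veh and 1208 to 1347 in ISP. With edgeR no gene at all was called in ISP against Veh. At an unadjusted edgeR p under 0.05, 4 of the 10 interneuron markers were lower there, as were 7.47% of all genes. DESeq2 called 2 of the 10 lower, and 1.33% of all genes. In the same comparison and at the same p, 7 of 11 upper-layer markers were lower (median log2 fold change -0.59, 4 called by DESeq2), and 7 of 10 oligodendrocyte markers (median 0.81) and 3 of 13 deep-layer markers (median 0.37) were higher. The part of these lists in the Ntrk3 values was not tested.

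**Figure D4:**
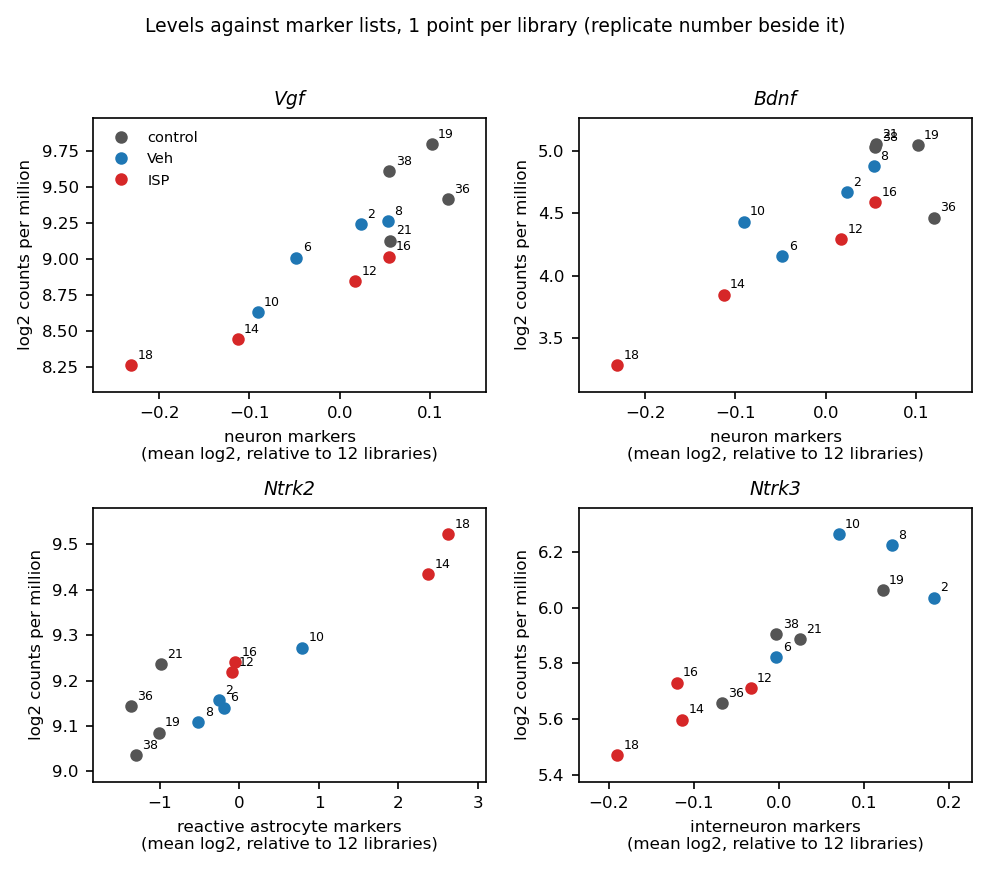
Log2 CPM (y axis) of Vgf and Bdnf against the neuron markers, Ntrk2 against the reactive astrocyte markers and Ntrk3 against the interneuron markers, each list as its mean log2 level relative to the 12 libraries (x axis), with replicate numbers beside the points. ISP 14 and ISP 18 lie at the low end for Vgf and Bdnf and at the high end for Ntrk2, and the ISP points of Ntrk3 lie low on both axes.

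Among the genes with a pattern most like Bdnf over the 12 libraries were Lgi1, whose secreted product links synaptic proteins, with r = 0.97, and Ap2b1 and Cap2. For Vgf they were Clstn3, a synaptic adhesion gene, with 0.98, Reep2 and Dact3. For Nptx2 they were Gtpbp6 (0.94), Dusp7 and Tmem97, for Pcsk1 Rock2 (0.95), Panct2 and Zdbf2, for Scg2 Wars (0.91), Cyp51 and Gba2, for Sort1 Tmem178b (0.94) and Zfp81, for Ntrk2 Adam17 (0.96) and Gsap (0.95), and for Ntrk3 Fbxo34 (0.94), Slc1a6 and Mhrt. These are the highest values among all tested genes and were not tested themselves.

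Of the wider family of 13 neurotrophin ligands and receptors, 10 were tested. Of these, 1 was called lower in Veh against control and 3 in ISP, where 1.2% and 3.42% of all genes were. Sorl1, a sorting receptor related to sortilin, was lower in Veh (-0.37, edgeR adjusted p = 0.0732) and ISP (-0.40, 0.0543) against control, and in ISP Sorcs3, of the same family, was lower too (-0.37, 0.0795), with Bdnf as the third gene called. Ngfr, the p75 receptor, was at 0.137 to 1.80 CPM in control. In ISP against Veh edgeR called no gene of the family, as it called none at all, and DESeq2 called Ntrk3 lower (adjusted p = 0.0221).

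Among the 26 genes of Trk signalling, 1 was called higher and 2 lower in Veh against control, and 3 higher and 2 lower in ISP against control. Over all genes tested, the calls were 1.03% higher and 1.2% lower in Veh, and 6.74% and 3.42% in ISP. Mapk3, which encodes the kinase ERK1, was higher in both (log2 fold changes 0.68 and 0.60, edgeR adjusted p = 0.0534 and 0.022), and Camk4, a calcium-dependent kinase upstream of CREB, was lower in both (-0.41 and -0.49, edgeR adjusted p = 0.0583 and 0.0229). Sos1, an exchange factor of Ras, was lower in Veh (-0.33, 0.0963), and the adaptor gene Gab1 was higher in ISP (0.80, 0.0273). The list's medians of 0.02 and -0.01 were close to those of all genes.

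Of 22 genes of the secretory granule, Pcsk1, Vgf and Scg2 among them, 2 were higher and 1 lower in Veh against control, and 2 higher and 5 lower in ISP against control. The genes higher in both were Cpe, the carboxypeptidase that trims peptides after the convertases (0.27 and 0.43, edgeR adjusted p = 0.0937 and 0.0205), and Scg3, a granule sorting protein (0.27 and 0.41, 0.0945 and 0.0205). Besides Vgf and Pcsk1, those lower in ISP were Pcsk2, the other neuronal convertase (-0.26, 0.0691), Ptprn (-0.27, 0.0901) and Chga, chromogranin A (-0.28, 0.0924). Of all genes tested, 1.03% were called higher and 1.2% lower in Veh, and 6.74% and 3.42% in ISP. The called genes of this list moved in both directions against control, and the medians of the list were -0.03 and -0.18.

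In the family of pentraxins and AMPA receptor subunits (7 genes), 4 were lower and 1 higher in ISP against control, and 1 was lower in Veh. Over all genes tested, 3.42% were called lower and 6.74% higher in ISP, and 1.2% lower in Veh. Besides Nptx2, those lower in ISP were Gria2 (-0.42, edgeR adjusted p = 0.0342), the subunit that limits calcium entry, Gria3 (-0.32, 0.082) and Nptxr (-0.52, 0.0524), the membrane-bound pentraxin. Nptx1, the pentraxin closest to Nptx2, was higher (0.33, 0.0644). In Veh, Gria2 was lower (-0.45, 0.0631). Against Veh, Nptxr in ISP had a log2 fold change of -0.52 (edgeR adjusted p = 0.261, DESeq2 0.0161), with every ISP library below every Veh library. Such a separation held for 4.01% of all genes, and DESeq2 called 1.33% lower. Nptx1 had a log2 fold change of 0.39 (edgeR adjusted p = 0.261, DESeq2 0.0555), with overlap. Of the 15214 genes tested with edgeR, DESeq2 called 164 higher.

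Of the 32 activity-induced genes, 2 were called lower in Veh against control and 1 higher and 1 lower in ISP. Of all genes, 1.2% were called lower in Veh, and 6.74% higher and 3.42% lower in ISP. At an unadjusted edgeR p under 0.05, 15 of the 32 were lower in Veh and 1 higher, against 1247 and 1225 of all 15126 genes. DESeq2 called 7 of the 32 lower and 1 higher in Veh, where it called 3.64% of all genes lower. Arc, a marker of recent neuronal activity, was at 277.6 to 833.9 CPM in control, 75.1 to 244.8 in Veh and 186.3 to 507.7 in ISP. It was lower in Veh (-1.59, edgeR adjusted p = 0.0746), as was Homer1, a postsynaptic scaffold gene (-0.56, 0.0732). In ISP, Jun was higher (0.71, 0.0296) and Egr4 lower (-0.74, 0.0865). In ISP against Veh, 4 of the 32 were higher at an unadjusted edgeR p under 0.05 and none lower, where 7.87% of all genes were higher. The smallest p there was that of Nr4a2 (log2 fold change 0.98, edgeR adjusted p = 0.266, DESeq2 0.0766), with overlapping groups. It was the 1 gene of the list called by DESeq2. The medians of the list were -0.44 in Veh and -0.23 in ISP against control and 0.19 in ISP against Veh, where those of the 8 members were -0.18, -0.43 and -0.27.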

How the data were processed

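The deposited table held whole-number read counts per gene, which the authors made with HISAT2 (mm10), GENCODE genes and HTSeq at its default settings, and tested with DESeq2 (the sources used here name no versions). The kit did not mark strand, and antisense genes overlap Bdnf and Sort1 in GENCODE M21. Here each comparison was fitted on its 8 libraries with edgeR 4.0.16 (R 4.3.3; filterByExpr, TMM, quasi-likelihood test, Benjamini-Hochberg adjusted p under 0.1). CPM were TMM-normalized over the 12 libraries, and log2 CPM used a prior count of 2. DESeq2 1.42.0 and limma 3.58.1 (voom) were alternatives, with other filters, scalings, thresholds and left-out libraries. Scaling to neuron markers was added after the values were seen. The scripts were tested on simulated data. The genes and lists were chosen with earlier results of these data known. Named genes were all members, up to 4 other genes per wider list by smallest p in a comparison, the 3 most correlated genes per member, and up to 3 markers per list by mean CPM. Some genes taken by this rule are not reported. Slc12a5 and Lcn2 were named after their values were seen. Each mouse gave 1 library, and pairs within groups differed by more than counting error (chi-square per degree of freedom 11.1 to 50.9).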

Additional observations from a re-analysis of the deposited data

Results flagged for a closer look

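Among 27 sets of 4 values (9 genes in 3 groups), 2 held a library whose gap to its nearest neighbour exceeded Dixon's 95% limit as a share of the group's range. Chance gives about 1 in 20 such sets. Bdnf in control 36 was at 22.0 CPM, while the other control libraries were at 32.6 to 33.1, and this is the library through which control and ISP overlap. Pcsk1 in ISP 18 was at 25.7 CPM, below the 36.4 to 38.5 of the other ISP libraries.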

How the results depend on the processing

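Each member's fold change was recomputed under 18 or 19 alternatives per comparison, 448 values in all, of which 409 kept their direction and their side of the threshold. No paired analysis was possible because the groups share no replicate numbers. In Veh against control 337 genes were called. There were 18 at an adjusted p of 0.05, 162 with a log2 fold change beyond 0.5, 510 without the filter, 1109 with DESeq2, 28 with all 12 libraries in 1 fit, and 0 (without control 21) to 461 with a library left out (6 without control 36 or Veh 2, 84 without control 38, 111 without Veh 10, 199 without Veh 8). The members called, 1, became 2 with DESeq2 and with the offset for GC content and length (Vgf added), and were 0 to 1 with a library left out. In ISP against control 1547 genes were called, 691 at 0.05, 949 with the fold criterion, 420 (without ISP 14) to 2283 (without ISP 16) with a library left out (514 without ISP 18, 486, 727 and 811 without control 38, 36 and 19), and 90 without ISP 14 and ISP 18. Of the members 4 were called, 2 to 5 with a library left out and 0 without ISP 14 and ISP 18. In ISP against Veh, where no gene was called, DESeq2 called 401 genes and 1 member (Ntrk3), and left-out libraries gave 0 to 72 genes (72 without Veh 6, 2 without ISP 12) and 0 to 1 members.

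Scaling to the neuron markers moved the median of all genes to 0.11 in Veh and 0.15 in ISP against control. The calls were then 350 higher and 33 lower (156 and 181 with TMM) and 1843 higher and 130 lower (1026 and 521). The GC and length offset moved the ISP median to -0.10, with 890 higher and 1251 lower. The cause of these shifts was not tested.

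Signs turned only for values that were not called. Scg2 in Veh against control was at 0.0002 with limma-voom, 0.0649 under neuron scaling and -0.066 to 0.0377 with a library left out (above 0 without control 36 or Veh 10). Sort1 was at 0.0043 under neuron scaling in ISP against control. In ISP against Veh, Sort1 was at 0.035 under neuron scaling and -0.0519 to 0.0131 with a library left out (above 0 without ISP 12, ISP 18 or Veh 10), and Pcsk1 at -0.13 with the GC and length offset and -0.0264 to 0.1514 with a library left out (below 0 without ISP 16 or Veh 10). Per kb of the longest transcript, the control levels were 7.06 for Bdnf, 63.9 for Ntrk2, 2.997 for Ntrk3 and 91.0 for Sort1. Depth limits Ntf3.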
